A study of Mus musculus with 48 samples.

Results

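Promoters that start transcription within a few bases were examined in T cells stimulated through the antigen receptor with and without PD-1 engagement. Capped analysis of gene expression (CAGE), which reads the 5' ends of capped RNA, had been run on total RNA of DO11.10 T hybridoma cells and of primary mouse CD4+ T cells, and the tags had been grouped into clusters of start sites. A sharp promoter was taken as a cluster that carried a single gene symbol, belonged to a gene with exactly 1 cluster in that table, and had an end minus start of at most 10 bp. This rule found 591 of 18025 clusters in the hybridoma (3.28%) and 720 of 17272 in CD4+ T cells (4.17%). No expression value entered the rule. Of these, 589 and 718 passed the filter on low values and were tested. Their median width was 3 bp in both tables, against 48 bp and 45 bp for the other single-cluster genes, which are called wider genes below.

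The hybridoma, a fusion line of BALB/c and AKR/J origin that carries an ovalbumin-specific receptor, had received pOVA, the ovalbumin peptide, at 0, 1, 10, 100, 1000 or 10000 nM. The CD4+ T cells came from BALB/cCrSlc mice and had received 2C11, an antibody to CD3, at 0, 10, 100, 1000 or 10000 ng/ml. Every dose was present without and with PD-1 engagement, with 2 libraries per group and 3 at 10000, which made 26 hybridoma and 22 CD4+ libraries. How PD-1 was engaged, the time of harvest, the age of the mice, the cells that presented pOVA and whether libraries came from separate cultures or animals were not given in the sources used here, so p-values measure only the spread between these libraries.

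Depth ran from 7787000 to 19705000 tags in the hybridoma and from 4423000 to 22806000 in CD4+ T cells. Of 20 T cell markers, 18 had a cluster in the hybridoma (Cd4 and Trat1 had none) and 20 in CD4+ T cells. A list of 24 markers of B cells and other antigen-presenting cells, of which 20 had a cluster in each table, summed to 1310 RPM in hybridoma library 2 at dose 0 without engagement and to 1060 RPM in library 2 at dose 0 with it, and to at most 320 RPM in the other hybridoma libraries. Blk and Ighd had no cluster in either table. The same list in CD4+ T cells summed to between 574 and 988 RPM in the stimulated libraries without engagement and to between 604 and 1310 RPM in those with it.

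RNA polymerase II starts transcription either across a broad stretch, typical of CpG-rich promoters of constitutively used genes, or at a focused site. Focused starts are classically placed by a TATA box, which the TATA-binding protein recognises a short distance upstream, and they are common among tissue-specific and rapidly induced genes. In T cells, receptor signals reach such promoters through NFAT, AP-1 and NF-kB factors, and PD-1, an inhibitory receptor, dampens those signals close to the receptor by recruiting the phosphatase SHP-2.

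The genes with sharp promoters fell into 2 unlike kinds by RefSeq biotype. In the hybridoma 315 were protein-coding and 207 were pseudogenes, with 17 more listed as transcribed pseudogenes. The CD4+ numbers were 436, 211 and 15. Pseudogenes other than transcribed ones made up 35.0% and 29.3% of the sharp promoters, against 1.8% of the wider genes in each table. A short processed pseudogene copies the RNA of a parent gene, so tags of the parent and of the copy cannot be told apart with certainty, and values of pseudogenes and of near-identical histone genes are uncertain for that reason. Both tables shared 435 sharp promoters, 73.6% of the hybridoma set and 60.4% of the CD4+ set. Of these, 434 overlapped on the same strand and 259 had the same start and end.

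The sequences of sharp promoters were read from the RefSeq promoter table (GRCm38.p6), which gives 250 bases before and 50 after each gene's start. A single promoter matched 241 of the 589 hybridoma and 314 of the 718 CD4+ members tested. The letters TATAAA lay within bases 40 to 20 before the start in 32 of 237 protein-coding sharp promoters of the hybridoma (13.5%) and in 41 of 312 of CD4+ T cells (13.1%). They lay there in 16 of 4647 (0.344%) and 19 of 4712 (0.403%) of the wider protein-coding genes, and in 2.32% of all 22862 promoters of the table. The strongly induced promoters of Ccl1 and Xcl1 held the related letters ATAAA instead, so ATAAA (which includes TATAAA) and TATAAG were added after the sequences had been seen. One of the 3 lay in that window in 56 of 237 (23.6%) and 74 of 312 (23.7%) of the sharp promoters, and in 40 (0.861%) and 47 (0.997%) of the wider ones. They were in 5.57% of all promoters. These window searches used the gene's strand only. The other motifs were searched on both strands over the whole 300 bases. GGGCGG, a GC box, was present in 59.5% and 60.6% of sharp and 69.2% and 69.2% of wider protein-coding promoters, and in 35.2% of all. TGACTCA, the AP-1 letters, was present in 7.17% and 6.73% of sharp, 2.63% and 2.65% of wider and 5.17% of all promoters. TGACGTCA, the CRE letters, was present in 4.64% and 4.17% of sharp, 3.94% and 3.97% of wider and 1.85% of all. GGAAA, the NFAT core, was about as common everywhere, with 58.6% and 59.0%, 59.3% and 59.1%, and 61.1%. CCAAT was present in 48.5% and 45.8% of sharp, 41.8% and 41.5% of wider and 38.2% of all. A match is a stretch of letters and not a shown binding site, and the RefSeq start need not be the base at which the CAGE cluster lies.

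The 50 bases before the start and the first 10 from it are shown for called members with large changes. The first 5 held TATAAA in the window, given in capitals. Il2, Tnf, Irf4 and Zfp36l1 rose in the hybridoma, and Ifng rose in CD4+ T cells.
Il2 (chr3:37125945-37126004, minus strand): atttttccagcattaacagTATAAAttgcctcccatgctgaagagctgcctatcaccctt
Tnf (chr17:35201998-35202057, minus strand): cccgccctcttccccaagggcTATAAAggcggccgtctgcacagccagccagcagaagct
Irf4 (chr13:30749183-30749242, plus strand): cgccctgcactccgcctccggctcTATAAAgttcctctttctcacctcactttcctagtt
Zfp36l1 (chr12:80113004-80113063, minus strand): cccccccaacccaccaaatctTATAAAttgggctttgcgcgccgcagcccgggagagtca
Ifng (chr10:118440996-118441055, plus strand): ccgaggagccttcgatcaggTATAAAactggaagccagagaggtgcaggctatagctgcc
The next 5 held ATAAA or TATAAG, also in capitals. Ccl1, Xcl1 and Rgs16 rose in both systems, Klf2 fell in CD4+ T cells and Txnip fell in the hybridoma.
Ccl1 (chr11:82179803-82179862, minus strand): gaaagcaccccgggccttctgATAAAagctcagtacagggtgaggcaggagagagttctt
Xcl1 (chr1:164935513-164935572, minus strand): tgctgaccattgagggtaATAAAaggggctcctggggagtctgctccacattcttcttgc
Rgs16 (chr1:153740303-153740362, plus strand): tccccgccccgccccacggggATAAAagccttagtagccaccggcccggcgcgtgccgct
Klf2 (chr8:72319012-72319071, plus strand): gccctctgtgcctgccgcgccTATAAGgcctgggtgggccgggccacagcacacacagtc
Txnip (chr3:96557907-96557966, plus strand): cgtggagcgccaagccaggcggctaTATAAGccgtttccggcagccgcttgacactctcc
A pair of histone genes with TATAAA fell in the hybridoma, though the call of Hist1h2ac was lost without library 1 at dose 0 (adjusted p = 0.0799, limma), library 2 at dose 0 (0.0583) or library 1 at 10000 nM (0.067).
Hist1h1b (chr13:21780616-21780675, minus strand): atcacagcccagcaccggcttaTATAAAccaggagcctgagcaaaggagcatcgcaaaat
Hist1h2ac (chr13:23683950-23684009, minus strand): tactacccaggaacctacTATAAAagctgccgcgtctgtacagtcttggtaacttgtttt
The last 3 held none of these letters in the window. Lif and Sema7a rose and Btg2 fell in CD4+ T cells.
Lif (chr11:4257518-4257577, plus strand): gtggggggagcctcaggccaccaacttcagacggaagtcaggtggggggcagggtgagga
Sema7a (chr9:57940062-57940121, plus strand): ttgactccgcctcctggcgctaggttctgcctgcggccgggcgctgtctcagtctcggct
Btg2 (chr1:134079146-134079205, minus strand): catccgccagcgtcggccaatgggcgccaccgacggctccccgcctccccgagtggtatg
The marked letters began 25 to 32 bases before the start in these 12 promoters, closest in Txnip and farthest in Xcl1 and Hist1h2ac. These promoters are a selection. In Hist3h2ba, which is not shown, TATAAA began 39 bases before the start. It fell in both systems (-1.26 in the hybridoma and -1.9 in CD4+ T cells). Hist1h2bl (-1.28) and Hist1h2bn (-0.96), also not shown, held none of these letters in the window. Both fell more in the hybridoma than Hist1h1b (-0.88) and Hist1h2ac (-0.87).

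The first comparison asked how sharp promoters responded to stimulation alone, as 10000 nM pOVA against dose 0. In the hybridoma, sharp promoters of cytokine, chemokine and immediate early genes rose, and those of replication-dependent histone genes fell. By limma on log2(RPM + 1) over the whole table, with Benjamini-Hochberg adjustment at 0.05, 112 of 589 sharp promoters were higher (19.0%) and 73 were lower (12.4%). Over all 18014 clusters tested, 13.8% were higher and 16.2% lower. Without both dose 0 libraries numbered 2, in which markers of antigen-presenting cells were high, 90 were higher and 50 lower. Among protein-coding genes, 77 of 315 sharp promoters were higher (24.4%) and 64 lower (20.3%), and of the wider genes 404 of 6896 were higher (5.86%) and 1542 lower (22.4%). The median log2 change was -0.03 in sharp protein-coding promoters, -0.22 in wider ones and -0.07 over all clusters. Of 222 pseudogenes, 23 were higher and 8 lower. In whole-cell RNA, fewer cells of a type and less RNA per cell cannot be told apart.

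**Figure D1:**
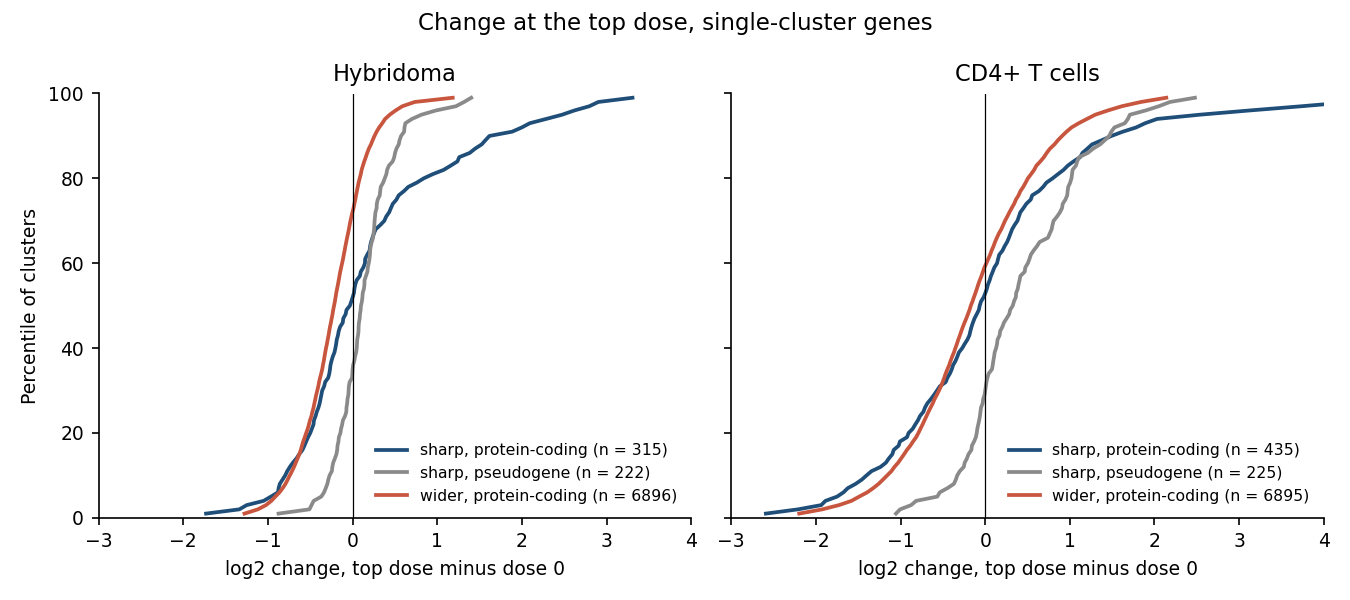
Percentile of clusters (y axis) against the log2(RPM + 1) change from dose 0 to the top dose without engagement (x axis, cut at 4), for sharp protein-coding, sharp pseudogene and wider protein-coding single-cluster genes. In the hybridoma the upper end of the sharp protein-coding curve lies to the right of the wider one (90th percentile 1.62 against 0.26), and in CD4+ T cells the same percentile is 1.49 against 0.91.

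The share called higher also differed by width within the sharp set of the hybridoma, and less so in CD4+ T cells. These differences were not tested. In the hybridoma, 67 of 214 protein-coding clusters of 1 to 5 bp were higher (31.3%), 9 of 81 of 6 to 10 bp (11.1%) and 29 of 407 of 11 to 20 bp (7.13%). Of the 20 that were a single base (end minus start 0), 1 was higher and 9 were lower. Just inside the limit, at 9 or 10 bp, 8 of 49 clusters of any biotype were higher and 5 lower, and just outside it, at 11 or 12 bp, 7 of 52 were higher and 10 lower. The CD4+ numbers were 19 and 18 of 54 just inside and 25 and 26 of 78 just outside. The share of higher calls there was 23.5% of the 51 single-base clusters (41.2% lower), 32.7% of 281 clusters of 1 to 5 bp, 34.0% of 103 of 6 to 10 bp and 28.7% of 467 of 11 to 20 bp.

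The shares were also set beside level. When all clusters tested were divided into 4 equal groups of mean level, sharp protein-coding promoters were called higher in 55.9% of 34, 26.4% of 53, 28.6% of 63 and 15.8% of 165 from the lowest to the highest group. Wider protein-coding genes were called higher in 5.31%, 3.9%, 3.92% and 8.89%, and all clusters tested in 22.2%, 13.9%, 7.66% and 11.3%. The CD4+ shares were 20%, 29.2%, 32.1% and 35.2% in sharp and 18.8%, 14.5%, 21.6% and 39.5% in wider genes, so that the order was turned in the highest group. Over all CD4+ clusters tested they were 23.1%, 19.4%, 23.9% and 38.5%, so sharp promoters lay below them in the lowest and highest groups. Mean level was taken over stimulated libraries too, so the groups do not match genes by their level before stimulation. A gene silent without stimulation can pass the filter on low values through its stimulated libraries alone. A high share of higher calls in the lowest group can therefore be partly built in, for sharp and wider genes alike. These shares are descriptions, without a test of the difference.

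**Figure D2:**
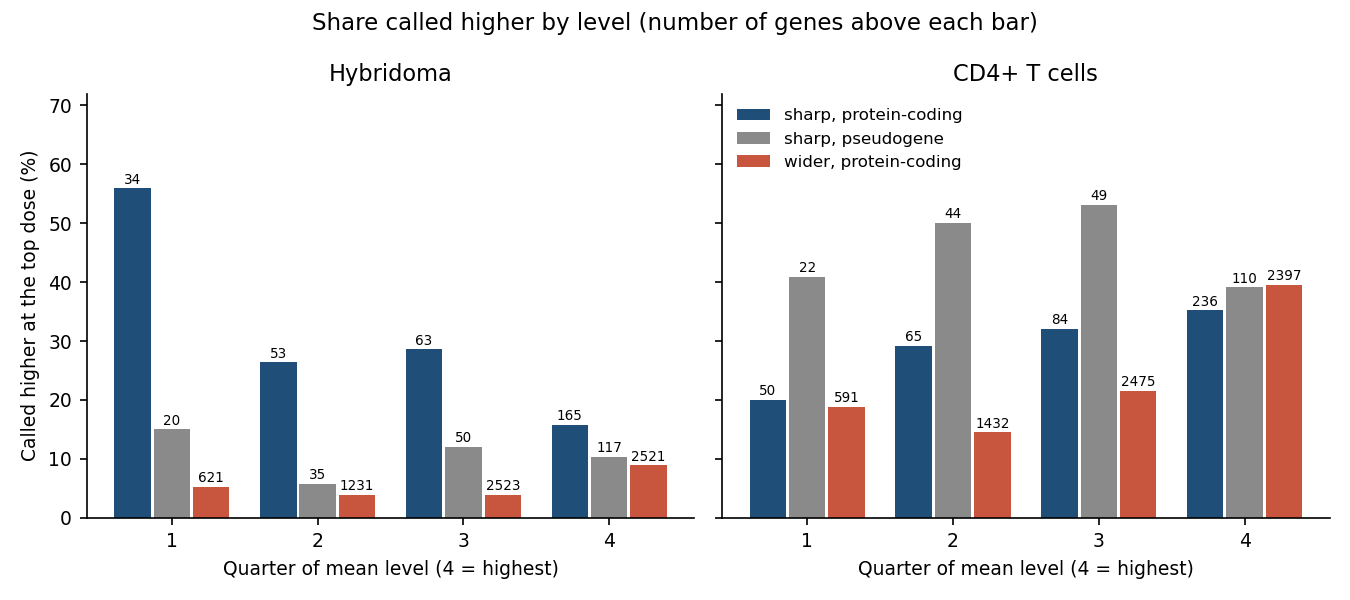
Percent of genes called higher at the top dose (y axis) in 4 equal groups of mean level over all clusters tested (x axis), for sharp protein-coding, sharp pseudogene and wider protein-coding genes, with the number of genes above each bar. In the hybridoma the sharp protein-coding bars are above the wider ones in all 4 groups, and in CD4+ T cells in the lower 3. Mean level includes stimulated libraries, so genes are not matched by their level before stimulation.

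All 8 cytokine and chemokine genes with a sharp promoter in the hybridoma rose, with a median log2 change of 2.59. Ccl1, a chemokine that draws cells bearing CCR8, had its start at chr11:81993313-81993316 (mm9, minus strand). It read 8.35 and 0.24 RPM at dose 0, 9.74 and 11.3 at 10 nM, 873 and 660 at 100 nM, 1290 and 1100 at 1000 nM, and 1950, 2140 and 1670 at 10000 nM. Library 1 stood above library 2 at dose 0, and every library from 100 nM up lay far above both. The log2 change at the top dose was 9.13 ± 0.47 (SE, adjusted p = 4.44e-11 by limma). Il2 encodes the main growth factor of T cells, and its start was at chr3:37024876-37024878. It was listed at 0 RPM in both libraries at 0, 1 and 10 nM, then at 1.51 and 1.37 RPM at 100 nM, 4.69 and 4.48 at 1000 nM, and 9.65, 9.98 and 7.71 at 10000 nM. The groups did not overlap from 100 nM up, and since dose 0 was at 0 the fitted change of 3.33 ± 0.15 depends on the value of 1 added to RPM. Tnf, the inflammatory cytokine, read 19.8 and 32.2 RPM at dose 0 and 178, 170 and 243 RPM at the top dose, with no overlap and a log2 change of 2.90 ± 0.20. Xcl1, the lymphotactin chemokine, rose by 3.90 ± 0.17 on the log2 scale, from 0.37 and 0 RPM to 18.1, 15.3 and 16.3 RPM.

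Of 12 immediate early transcription factors with a sharp promoter, 9 rose and none was called lower (median log2 change 1.51). Egr3, an early growth response factor that is induced by receptor signals, read 0.74 and 0.59 RPM at dose 0, 7.72 and 7.44 at 10 nM, 86.9 and 64.5 at 100 nM, and 133, 154 and 156 at 10000 nM. Its libraries at 10 nM already lay above those at dose 0, and the log2 change at the top dose was 6.48 ± 0.18 (adjusted p = 7.31e-15 by limma). Ier2, an early response gene, rose by 2.46 ± 0.15 and Fos, an AP-1 subunit, by 2.29 ± 0.21. Irf4, a factor whose level follows receptor signal strength, rose by 3.16 ± 0.20, from 1.39 and 2.06 RPM to 24.1, 23.5 and 22.1 RPM.

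Of 8 feedback regulators of signalling, 6 rose. Zfp36l1, which promotes decay of AU-rich mRNAs, went from 20.6 and 26.2 RPM to 236, 191 and 160 RPM, a log2 change of 3.0 ± 0.20. Rgs16, a brake on G protein signals, rose by 2.70 ± 0.22. Of 6 surface activation genes 5 rose, among them Cd69, an early activation marker (1.55 ± 0.13), and Cd83 (2.21). Of 6 apoptosis and growth arrest genes 4 rose, namely Plk3 (2.91), Phlda1 (2.87), Gadd45b (2.19) and Cdkn1a (1.90), the last an inhibitor of cyclin-dependent kinases.

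Replication-dependent histone genes, which are transcribed in S phase and whose mRNAs carry no poly(A) tail, were the largest group to fall. In the hybridoma, 31 of 37 sharp histone promoters were called lower and none higher, with a median log2 change of -0.79. Hist2h4, a histone H4 gene with its start at chr3:96067256-96067257, read 3770 and 3480 RPM at dose 0, 2190 and 2480 at 100 nM, 1610 and 1870 at 1000 nM, and 1630, 1780 and 1670 at 10000 nM. All stimulated libraries from 100 nM up lay below both at dose 0, and the log2 change was -1.10 ± 0.11 (adjusted p = 3.23e-07 by limma). Hist1h2bl, a histone H2B gene, went from 1200 and 1080 RPM to 444, 533 and 435 RPM (-1.28 ± 0.13). Without both dose 0 libraries numbered 2, 22 of the 37 were called lower, and edgeR on recovered tags called 23 lower and 1 higher.

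Few of the other lists had many sharp members in the hybridoma. Among 4 resting and naive T cell genes, Btg1 (0.88) and Btg2 (0.76), both restraints on proliferation, rose, Txnip fell, and Tob1 was at -0.21 without passing the test. Txnip, which limits glucose uptake, went from 24.4 and 20.3 RPM to 8.99, 7.61 and 8.73 RPM (-1.30 ± 0.14). Of 10 cytoplasmic ribosomal protein genes 1 was called, and of 7 amino acid supply genes none was called. Ighm, the immunoglobulin mu constant region, went from 14.6 and 15.9 RPM to 4.95, 7.09 and 6.55 RPM (-1.19 ± 0.14). All 3 libraries at the top dose lay below both at dose 0. Cxcr4, a chemokine receptor outside the naming rule and chosen after its values were seen, fell in both systems (-2.06 in the hybridoma and -1.63 in CD4+ T cells).

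Calls began mainly at 100 nM. There, 58 sharp promoters were higher and 19 lower, where 5.76% and 2.91% of all clusters were. At 1000 nM, 113 were higher and 78 lower, where 12.5% and 17.7% of all clusters were. For the 68 sharp promoters called higher by 2-fold or more with 10000 nM, the interpolated dose at 50% of the largest rise had a median of 105 nM, against 97.6 nM in 103 wider genes. Among named genes it was lowest in Cd69 (33.8 nM), Ier2 (41.9 nM) and Tnf (62.7 nM), near the middle in Egr3 (95.2 nM) and Irf4 (202 nM), and highest in Il2 (979 nM) and Isg15 (1820 nM), an interferon-stimulated gene. These doses are descriptions from group means and carry no error.

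**Figure D3:**
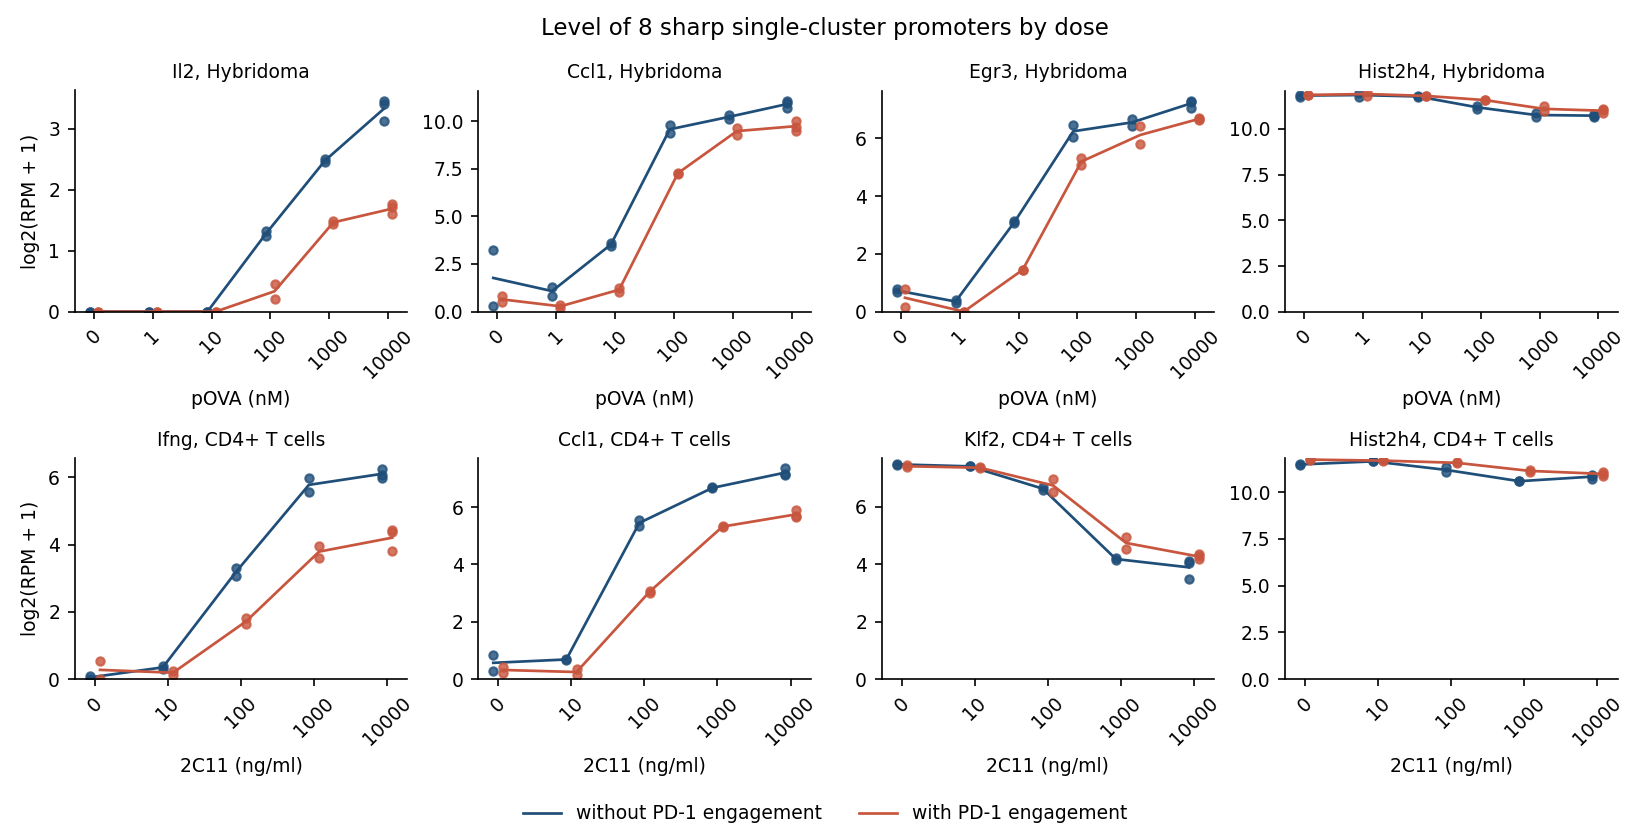
Level as log2(RPM + 1) (y axis) against dose (x axis, equal spacing) for 4 sharp promoters in the hybridoma (top) and 4 in CD4+ T cells (bottom). Points are libraries and lines join group means, without (blue) and with (red) PD-1 engagement. The red lines of Il2, Ccl1, Egr3 and Ifng lie below the blue ones from 100 up.

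With 10000 ng/ml 2C11 against dose 0, 251 of 718 sharp promoters of CD4+ T cells were higher (35.0%) and 193 lower (26.9%) by limma. Over all 17269 clusters tested, 26.2% were higher and 38.2% lower. Of 435 sharp protein-coding promoters 139 were higher (32.0%) and 160 lower (36.8%), and of 6895 wider ones 1798 were higher (26.1%) and 2747 lower (39.8%). The share of higher calls differed less between sharp and wider protein-coding genes here than in the hybridoma, and the difference between systems was not tested, since the tables were normalized separately. Of 225 pseudogenes 100 were higher (44.4%) and 23 lower, and 78 of 153 wider pseudogenes were higher (51%). At 100 ng/ml, 144 sharp promoters were higher and 58 lower (13.6% and 7.18% of all clusters), and at 1000 ng/ml 232 were higher and 198 lower (28.1% and 29.9% of all clusters). With quantile normalization the median change of all clusters at the top dose moved from -0.15 to -0.02, while the sharp promoters were split into 263 higher and 191 lower.

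Of the 16 cytokine and chemokine genes with a sharp promoter in CD4+ T cells 14 rose, with a median log2 change of 3.97, and the values of the other two were -0.34 for Ccl5 and 0.48 for Cxcl10, which did not pass the test. Ifng, the type II interferon, had its start at chr10:117878101-117878102. It read 0.071 and 0 RPM at dose 0, 7.29 and 8.95 at 100 ng/ml, 46.1 and 62.7 at 1000 ng/ml, and 62.6, 75.7 and 65.6 at 10000 ng/ml. All libraries from 100 ng/ml up lay above both at dose 0, and the log2 change was 6.05 ± 0.21 (adjusted p = 4.59e-14 by limma). Il2 went from 1.5 and 1.61 RPM to 72.1, 94.1 and 71.6 RPM (4.96 ± 0.22), Ccl1 from 0.786 and 0.23 to 138, 140 and 162 RPM (6.64 ± 0.15), and Lif, a cytokine of the IL-6 family, from 0.786 and 1.15 to 88.3, 110 and 92 RPM (5.63 ± 0.23). Ccl3 (5.75) and Ccl4 (6.48), both inflammatory chemokines, rose too. The largest change of a named member was that of Crabp2, a carrier of retinoic acid, which went from 1.72 and 0.459 RPM to 397, 425 and 357 RPM (7.62 ± 0.19).

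Of 9 immediate early factors 7 rose and 1, Id3, was lower (-0.83). Egr1 read 20.6 and 18.1 RPM at dose 0 and 209, 197 and 203 RPM at the top dose, and was already at 180 and 257 RPM at 100 ng/ml. Nr4a1, an orphan nuclear receptor used as a reporter of receptor signals, read 15.1 and 16.6 RPM at dose 0, 229 and 251 at 100 ng/ml and 233, 245 and 279 at 10000 ng/ml. Both groups of libraries lay apart from dose 0, with log2 changes of 3.33 ± 0.16 for Egr1 and 3.91 ± 0.15 for Nr4a1. Tbx21, the factor of type 1 helper cells, rose by 1.51 ± 0.09 and Irf4 by 2.06 ± 0.10. Of 9 surface activation genes 7 rose, among them Sema7a (4.63), Tnfsf14 (4.07) and Cd69 (1.22).

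Among the genes listed here for CD4+ T cells, the dose at 50% of the largest rise was lowest in Egr1 (31.1 ng/ml) and Nr4a1 (39.5 ng/ml). It was 90.9 ng/ml for Tnf, 341 for Ccl1, 363 for Ifng, 416 for Il2 and 507 for Ccl4. Not every early factor and cytokine is listed, so these values give no order of the classes, and in the hybridoma Tnf lay below Egr3. The median of this dose in CD4+ T cells was 229 ng/ml over 125 sharp promoters and 190 ng/ml over 634 wider genes.

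Of 7 resting and naive T cell genes with a sharp promoter 6 fell, with a median log2 change of -2.32. Klf2, a factor that maintains quiescence and homing of naive cells, read 174 and 179 RPM at dose 0, 102 and 93.5 at 100 ng/ml, 17.5 and 16.7 at 1000 ng/ml, and 16.4, 10.3 and 15.5 at 10000 ng/ml. Tsc22d3, a glucocorticoid-induced gene, went from 99.6 and 114 RPM to 5.54, 6.01 and 6.91 RPM, and Ccr7, the receptor that guides cells to lymph nodes, from 361 and 353 RPM to 53.4, 46 and 48 RPM. The groups did not overlap in any of the 3, and the log2 changes were -3.58 ± 0.15, -3.92 ± 0.21 and -2.84 ± 0.13. Of 5 interferon-stimulated genes 4 fell, among them Gbp2 (-1.62) and Ifit1 (-1.19). Of 38 sharp histone promoters 16 were lower and 2 higher, with a median of -0.19, where 38.2% of all clusters were lower and 26.2% higher. The median depended on the scaling. edgeR called 14 lower and 5 higher (median -0.02), and quantile normalization 20 lower and 3 higher (-0.26). Hist3h2ba, a variant H2B gene, went from 158 and 140 RPM to 46.4, 34.8 and 36.9 RPM (-1.90 ± 0.12).

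Of the 434 sharp promoters tested in both systems, 124 were called at the top dose in the hybridoma and 269 in CD4+ T cells. The 86 called in both were 69.4% of the former and 32.0% of the latter. With 269 of 434 called in CD4+ T cells, a large overlap arises without any link, and the overlap was not tested. In both, 45 were higher and 28 lower, and 13 went opposite ways.

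The second comparison asked what PD-1 engagement did under stimulation, as the engaged minus the unengaged libraries averaged over the stimulated doses. In the hybridoma, 18 of 589 sharp promoters were lower with engagement and 4 higher by limma, where 1.72% of all clusters were lower and 0.0999% higher. With the replicate number at each dose as a block, which the libraries' shared deviations call for, 51 were lower and 25 higher, where 4.65% and 1.56% of all clusters were. In the fit without the block, all 18 and all 4 were protein-coding, and 5.71% of protein-coding sharp promoters were lower, against 0.624% of wider ones. The 18 were cytokines and chemokines (6 of 8), immediate early factors (2 of 12), feedback regulators (3 of 8), Irf4, Plk3 and others. With the block, 6 of 8 cytokines and chemokines, 6 of 12 immediate early factors and 5 of 8 feedback regulators were called lower, and 1 immediate early factor higher. With edgeR, 2 of the 8 cytokines and chemokines and 2 of the 8 feedback regulators were called lower. The Plk3 call was lost when any of 9 single libraries was left out (adjusted p from 0.0545 to 0.0832, limma). Calls of Atf3, an immediate early factor, and of Ero1l were likewise lost without single libraries (adjusted p up to 0.075 and 0.1, limma). Libraries were left out only in the fit without the block, so these losses do not speak for the blocked fit.

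Ccl1 in the hybridoma read 873 and 660 RPM without engagement and 156 and 151 with it at 100 nM, 1290 and 1100 against 805 and 628 at 1000 nM, and 1950, 2140 and 1670 against 828, 1030 and 724 at 10000 nM. The groups did not overlap at any of these doses, and the mean log2 difference was -1.48 ± 0.22 (adjusted p = 0.000742 by limma). Il2 was at 1.51 and 1.37 RPM without and 0.16 and 0.37 RPM with engagement at 100 nM, and at 9.65, 9.98 and 7.71 without and 2.27, 2.39 and 2.03 with it at 10000 nM. Again no engaged library reached an unengaged one, and the mean difference was -0.72 ± 0.07. Egr3 was at 7.72 and 7.44 RPM without and 1.72 and 1.73 RPM with engagement at 10 nM, and at 133, 154 and 156 without and 101, 99.1 and 104 with it at 10000 nM (-0.81 ± 0.09). Xcl1 had a mean difference of -1.11, Irf4 of -0.72, Zfp36l1 of -0.58 and Tnf of -0.46.

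Summed over the stimulated doses, engagement took 80.5% of the rise of Xcl1, 75.8% of Rgs16, 71.9% of Il2, 56.3% of Irf4, 55.9% of Ccl1 and 43.1% of Tnf in the hybridoma. It took 36.1% of the rise of Egr3, 26.5% of Cd69, 22.1% of Ier2 and 3.33% of Cdkn1a. The median was 38.2% over the 68 sharp promoters raised at least 2-fold and 40.9% over 103 such wider genes. Both rises were counted from dose 0 without engagement. The genes were chosen by their rise in unengaged libraries that also form the base of the percentage. Engaged libraries took no part in that choice, so the percentages lean upward and are descriptions without a test. Cd69 (-0.23 ± 0.06) did not pass the test without the block (adjusted p = 0.0746) and did with it (adjusted p = 0.0102, limma). Ier2 (-0.28) passed with it likewise (adjusted p 0.0606 and 0.000272, limma).

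The 4 promoters that were higher with engagement in the hybridoma were genes that had fallen with dose, namely Cxcr4 (0.42), Txnip (0.28), Hist2h4 (0.22) and Hist1h4n (0.19). Hist2h4 read 3030 and 3080 RPM with engagement at 100 nM, 1990 and 2410 at 1000 nM and 1840, 2110 and 2190 at 10000 nM, all above the unengaged libraries of the same dose. For most of the stimulated libraries, leaving out that library alone lost the calls of Hist2h4 and of Txnip (adjusted p up to 0.102 and 0.123, limma). edgeR called 1 of the 37 sharp histone promoters higher and did not call Txnip. With the block, 12 of the 37 sharp histone promoters were called higher and none lower, and the median difference was 0.10.

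Among CD4+ libraries, 177 of 718 sharp promoters were lower with engagement and 94 higher by limma, where 28.0% of all clusters were lower and 7.19% higher. This split depended on the scaling, since quantile normalization gave 110 lower and 134 higher and edgeR with TMM factors 91 lower and 185 higher. Engagement moved promoters at dose 0 as well, with 35 lower and 16 higher, where 6.83% and 2.67% of all clusters were. Among protein-coding genes 152 of 435 sharp promoters were lower (34.9%) and 56 higher (12.9%), and of the wider ones 38.9% were lower and 2.60% higher.

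Most cytokines and chemokines were lower with engagement under the 3 scalings run. Of 16, 14 were called lower and none higher, with a median of -0.83. Quantile normalization called 14 lower and 1 higher, and edgeR 13 and 1. Ifng read 7.29 and 8.95 RPM without and 2.49 and 2.10 with engagement at 100 ng/ml, 46.1 and 62.7 against 11.2 and 14.7 at 1000 ng/ml, and 62.6, 75.7 and 65.6 against 19.7, 20.5 and 13.1 at 10000 ng/ml. The engaged libraries lay below all unengaged ones at each of these doses, and the mean difference was -1.38 ± 0.11 (adjusted p = 2.58e-07 by limma). Ccl1 was at 39.8 and 45.6 RPM without and 7.46 and 7.07 RPM with engagement at 100 ng/ml and at 138, 140 and 162 against 50, 49.7 and 58.3 at 10000 ng/ml (-1.41 ± 0.08). Ccl3 was lower by the same measure (-1.38), as were Lif (-0.94), Ccl4 (-0.91), Il21 (-0.74) and Il2 (-0.63).

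Only Ifng and Ccl1 had an engagement effect under stimulation that differed from the effect at dose 0 by limma, with differences of -1.60 and -1.16 (adjusted p = 0.0358 for both). Both were below 1 RPM at dose 0 without engagement, where little or no lowering could be measured, so this difference mostly restates the effect under stimulation. They were the 2 members called lower in that test and also the only 2 clusters of the whole table (0.0116%).

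Engagement took 74.7% of the summed rise of Ifng, 72.4% of Ccl3, 69.8% of Xcl1, 66.4% of Ccl1 and 61.8% of Tbx21 in CD4+ T cells, and 40.5% of Il2, 36.7% of Egr1, 30.3% of Tnf and 20.8% of Nr4a1. Its median was 28.9% over all 125 sharp promoters raised at least 2-fold and 33.2% over 634 such wider genes. Among protein-coding genes the order was turned, at 42.1% over 71 sharp and 34.4% over 571 wider ones. Among pseudogenes it was 6.77% over 46 sharp and -8.88% over 35 wider ones. A negative value means that the engaged libraries summed higher over the stimulated doses than the unengaged ones. The base was dose 0 without engagement, so a shift already present at dose 0 with engagement enters these percentages. The choice of genes limits them as in the hybridoma. Of 9 immediate early factors 6 were lower with engagement and 1 higher. Egr1 was at 219 and 215 RPM without and 122 and 170 RPM with engagement at 1000 ng/ml (mean difference -0.60 ± 0.08), and Nr4a1 at 299 and 271 against 253 and 218 RPM (-0.38 ± 0.08). At 10000 ng/ml the Nr4a1 libraries overlapped, with 233, 245 and 279 RPM without and 270, 211 and 206 RPM with engagement.

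The 94 promoters that were higher with engagement in CD4+ T cells included 34 of 225 pseudogenes (15.1%, with 18 lower) and 22 histones. Of 153 wider pseudogenes, 28 were higher (18.3%) and 11 lower. Of 38 sharp histone promoters 22 were called higher and none lower (16 with quantile normalization and 30 with edgeR, none lower in either). The median histone was higher by 0.19 with engagement on average. Relative to dose 0 without engagement it stood at 0.19 at dose 0 with engagement, at 0.14 and 0.11 without and with it at 10 ng/ml, at -0.18 and 0.11 without and with it at 100 ng/ml, at -0.47 and -0.09 at 1000 ng/ml, and at -0.19 and -0.30 at 10000 ng/ml. The engaged median thus lay higher at 0, 100 and 1000 ng/ml and not at 10 or 10000 ng/ml. H2afz, a histone H2A variant made through the cell cycle and not counted in the list, was at 1200 and 1230 RPM without and 1620 and 1690 RPM with engagement at 1000 ng/ml (mean difference 0.27 ± 0.03).

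**Figure D4:**
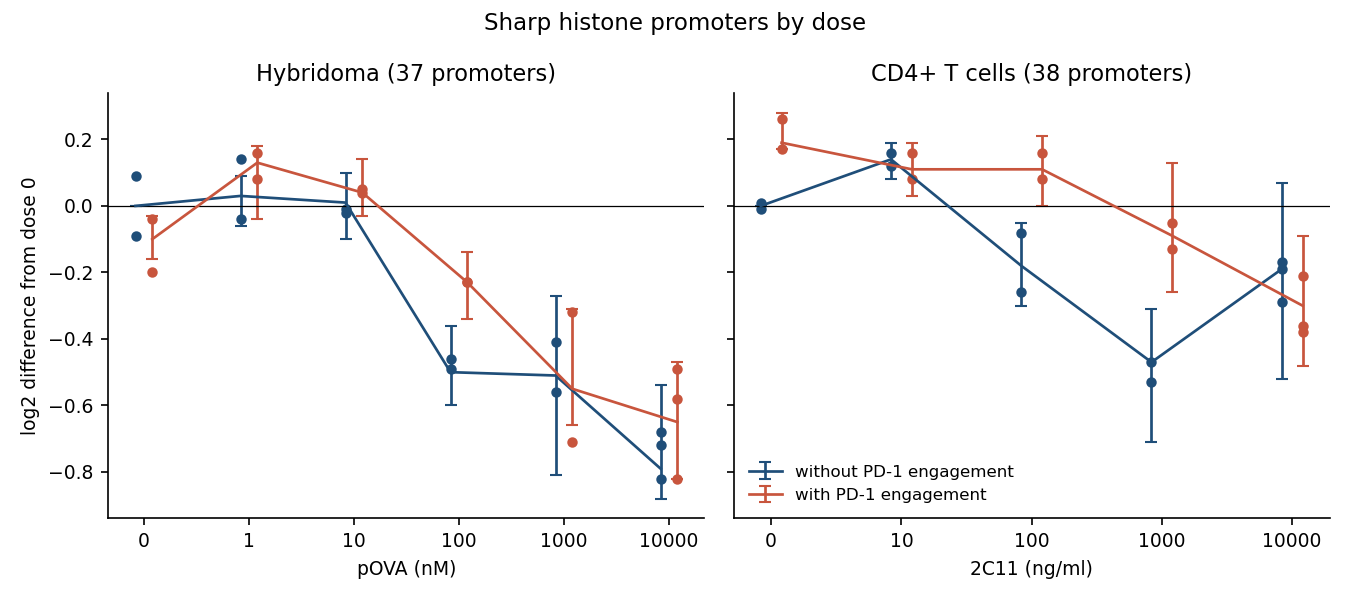
Median log2 difference from dose 0 without engagement over sharp histone promoters (y axis) by dose (x axis, equal spacing), without (blue) and with (red) PD-1 engagement. Points are the medians of single libraries, and bars give the 25th to 75th percentile over promoters. The hybridoma medians fall to -0.79 without engagement at the top dose, and in CD4+ T cells the blue and red medians lie farthest apart at 1000 ng/ml (-0.47 and -0.09).

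The sharp promoters of 3 genes typical of B cells were also higher with engagement in CD4+ T cells. Cd74, the invariant chain, was at 240 and 315 RPM without and 354 and 464 RPM with engagement at 1000 ng/ml and at 254, 413 and 243 against 550, 505 and 365 RPM at 10000 ng/ml, where the libraries overlapped (mean difference 0.45 ± 0.13, adjusted p = 0.0116 by limma). Pou2af1, a B cell coactivator, was higher by 0.38 and Spib, a B cell factor, by 0.32. The Spib call was lost when any of 5 single libraries was left out (adjusted p from 0.0543 to 0.0691, limma). The summed list of such markers had a median of 738 RPM over 9 stimulated libraries without engagement and 1110 RPM over 9 with it. The part of such cells in the engagement results was not tested.

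Klf2 was higher with engagement by 0.25 ± 0.08 (adjusted p = 0.0223 by limma), a call lost when any of 3 libraries was left out (adjusted p up to 0.0723). Ccr7 (0.13), Btg2 (0.13) and Tsc22d3 (0.19) did not pass the test. Of the 7 resting and naive genes 2 were called higher with engagement and 1 lower (median 0.13). That count depended on the scaling, with 4 higher and none lower both by quantile normalization (median 0.27) and by edgeR (0.25). Of the 434 promoters tested in both systems, 14 were called with engagement in the hybridoma and 164 in CD4+ T cells. The 11 called in both were 78.6% and 6.71% of these, in the fits without the block. With 164 of 434 called in CD4+ T cells, some overlap arises without any link, and it was not tested. Of the 11, 10 were lower in both, namely Ccl1, Gem, Il2, Il3, Irf4, Plk3, Rgs16, Tnf, Xcl1 and Zfp36l1, and Hist2h4 was higher in both. The hybridoma call of Plk3 was lost without any of several single libraries and that of Hist2h4 without any of most stimulated ones, as given above.

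Promoter letters were set beside the response. Among protein-coding sharp promoters of the hybridoma, 8 of 32 with TATAAA in the window were higher at the top dose (25%) and 49 of 205 without it (23.9%), while 31.2% and 20.5% were lower. With engagement 12.5% and 4.88% of them were lower. With ATAAA and TATAAG counted too, 20 of 56 were higher (35.7%) and 14 lower (25%) against 37 (20.4%) and 38 (21%) of 181 without, and with engagement 9 of 56 (16.1%) and 5 of 181 (2.76%) were lower. Of the CD4+ promoters, 29 of 74 with any of the letters were higher (39.2%) and 30 lower (40.5%) against 72 (30.3%) and 83 (34.9%) of 238 without, and 33 of 74 (44.6%) and 76 of 238 (31.9%) were lower with engagement. For TATAAA alone the CD4+ shares were 26.8% of 41 with it and 33.2% of 271 without it higher at the top dose, 51.2% and 33.9% lower at the top dose, and 34.1% and 35.1% lower with engagement. The wider set of letters had been chosen after induced promoters were seen, so these shares do not support a link.

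Spread between libraries of a group reached higher values in sharp promoters than in wider protein-coding genes, and wider pseudogenes had a large spread too. The SD of log2(RPM + 1) within groups had a 90th percentile of 0.429 in protein-coding and 0.588 in pseudogene sharp promoters of the hybridoma and of 0.307 in wider protein-coding genes, while the medians were 0.206, 0.205 and 0.187. The CD4+ 90th percentiles were 0.299, 0.400 and 0.269. Wider pseudogenes had a 90th percentile of 0.465 in the hybridoma and 0.401 in CD4+ T cells, with medians of 0.204 and 0.219, so that in CD4+ T cells their median lay above the 0.164 of sharp pseudogenes. An SD above 0.5 was found in 59 of 589 sharp promoters (10.0%) and 258 of 7417 wider ones (3.48%) in the hybridoma, and in 40 of 718 (5.57%) and 60 of 7391 (0.812%) in CD4+ T cells. Gm13253, a pseudogene named after its values were seen, was called higher at the top dose in the hybridoma (4.44 ± 1.06). Its libraries read 89.7 and 72.1 RPM at dose 0, 1190 and 72.1 at 1 nM, 2340 and 2780 at 10 nM, 668 and 480 at 100 nM, and 2450, 2040 and 1110 at 10000 nM, and 588 and 1990 at dose 0 with engagement. Libraries of 1 group lay far apart at 1 nM and at dose 0 with engagement, and the groups had no order by dose. Hist1h4k, a histone H4 gene also named after its values were seen, had the widest such gaps, with 4900 and 18.8 RPM at dose 0, 1700 and 14 at 100 nM, 16.4 and 1800 at 1000 nM, and 11.8, 12.5 and 11.9 at 10000 nM. Its log2 change of -4.57 ± 3.0 did not pass the test (adjusted p = 0.256, limma), and it is 1 of the 37 histone promoters counted above. Its SD within groups was 3.78, and the next largest over both systems were also those of histone genes, at 3.10 for Hist1h2br and 2.97 for Hist2h3c2 in the hybridoma and 2.70 for Hist1h2ap in CD4+ T cells. AC099934.1, called higher in the hybridoma (1.99 ± 0.49), read 578 and 86 RPM at dose 0. Without library 2 at dose 0 its change was 0.63 and was not called (adjusted p = 0.221, limma). In CD4+ T cells its libraries read 4660 and 267 RPM at 1000 ng/ml.

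**Figure D5:**
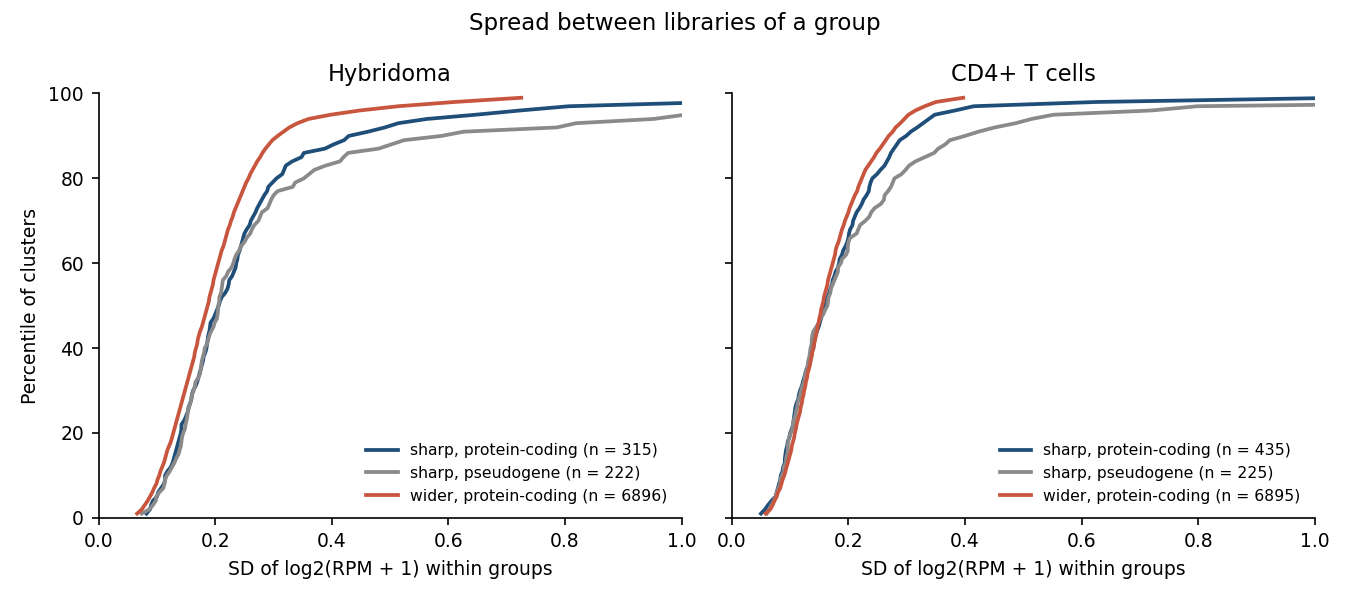
Percentile of clusters (y axis) against the SD of log2(RPM + 1) between libraries of a group, pooled over groups (x axis, cut at 1). The upper ends of the sharp pseudogene curves reach farther right than those of wider protein-coding genes in both systems, and the 90th percentiles are 0.588 and 0.307 in the hybridoma.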

How the data were processed

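CAGE tags had been counted per start-site cluster and deposited by the authors as RPM, tags scaled to a common library total. The labels' protocols give TRIzol total RNA and CAGE, and the submitters' processing notes name mm9, BWA 0.7.12 and HISAT2 2.0.5 without roles. How clusters were built and named was not given in the sources used here. RPM of a CAGE cluster counts 5' ends and needs no division by length. Steps of 1 tag gave whole tags (within 0.1 tag) for at least 99.98% of values in each library. Clusters that reached 1 RPM in 2 or more libraries were then analysed per system on log2(RPM + 1) by limma 3.58.1 (R 4.3.3), with a mean for each group and Benjamini-Hochberg adjustment over all clusters, and called at 0.05. The scripts were tested on simulated data. edgeR 4.0.16 on recovered tags, other pseudocounts, filters, scalings and widths, a replicate block and leaving out libraries were alternatives. On recovered tags edgeR called 2654 clusters higher and 3066 lower at the top dose in the hybridoma and 5656 and 5602 in CD4+ T cells. Members, gene lists and comparisons were chosen with earlier results of these data known. Named genes were the 10 higher and 10 lower called members with the largest change at or above the median level in each comparison (no predicted models, libraries not overlapping or the same sign at every dose), 4 members of each list and 12 activation genes where they were members. Ccl5, Cxcl10, Cxcr4, Gem, Gm13253, Id3, Il3 and a few histones with a large spread were named after their values were seen. Libraries with the same number at the same dose deviated together in the hybridoma (correlations from 0.208 to 0.656) and not throughout CD4+ T cells, so blocked values are given for the hybridoma. RefSeq names, biotypes and promoters are of GRCm38.p6, and no coordinate was carried between builds.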

Additional observations from a re-analysis of the deposited data

Results flagged for a closer look

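The response to the top dose went opposite ways in the 2 systems, with every top-dose library on one side of every dose 0 library, for 4 named members. The difference between the systems was not tested, because the tables were normalized separately. Btg2 had a log2 change of 0.76 in the hybridoma and -2.32 in CD4+ T cells. Btg1 was at 0.88 and -0.38, Ifit1 at 0.95 and -1.19, and Gzma, a granule protease, at 0.67 and -0.40. The hybridoma call of Btg2 was lost without library 1 at dose 0 (adjusted p = 0.0917, limma), and those of Ifit1 (0.0593) and Gzma (0.17) without library 2 at dose 0. In CD4+ T cells the Gzma call was lost when any of the 5 libraries compared was left out (adjusted p from 0.052 to 0.215).

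The engagement effect in stimulated CD4+ T cells differed from the effect at dose 0 for Ccl1 (-1.16) and Ifng (-1.60), both with adjusted p = 0.0358 by limma. Ccl1 and Ifng were higher at the top dose than at dose 0 in all 3 libraries without engagement, and all 3 engaged libraries lay below them. Both genes were below 1 RPM in the dose 0 libraries, so engagement could hardly lower them there.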

How the results depend on the processing

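No named result reversed under any alternative. Other pseudocounts, filters and the gene-level table moved no count of sharp promoters by more than 1.5 times, except that the gene-level table called 1 hybridoma promoter higher with engagement in place of 4. edgeR on recovered tags (99.98% or more whole) called 112 higher and 69 lower at the top dose in the hybridoma and 298 and 161 in CD4+ T cells. For engagement it called 9 lower and 1 higher in the hybridoma, and 91 lower and 185 higher in CD4+ T cells, where quantile normalization called 110 lower. With a width of at most 20 bp, 146 were lower at the top dose in the hybridoma, and in CD4+ T cells 418 were higher, 380 lower and 344 lower with engagement, from a larger set. Protein-coding members alone, an alternative chosen after seeing the data, gave 139 higher at the top dose and 56 higher with engagement in CD4+ T cells.

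With the replicate block, 51 hybridoma promoters were lower and 25 higher with engagement, and the block moved no other count by over 1.5 times. In CD4+ T cells, where libraries of the same number did not deviate together throughout, the block gave 189 lower and 101 higher. The labels give only a replicate number in both systems. Leaving out 1 library gave 1 to 4 hybridoma promoters higher with engagement and 12 to 22 lower. The top-dose counts ran from 86 to 113 higher and 50 to 71 lower in the hybridoma, and without both dose 0 libraries numbered 2 they were 90 and 50. In CD4+ T cells leaving out 1 library gave 67 to 109 higher with engagement.

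Counting clusters with several symbols for each gene was not run, because those symbols are not listed. With 2 or 3 libraries a group, small changes of promoters near 1 RPM were not detectable at this depth, and tags of near-identical copies cannot be told apart.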
